A study of Mus musculus with 12 samples.

Results

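The comparison described here sets mammary tumors of hyperglycemic mice against tumors of control mice, and rests on 6 of the 12 arrays of the series. The members were chosen by their labels: 3 tumors of PyMT/PANIC mice, marked HyG, and 3 tumors of PyMT mice, marked control. All 6 came from female mice of the FVB strain at 10 weeks of age, and both groups carry the PyMT transgene, which expresses the polyoma virus middle T antigen in the mammary epithelium and gives tumors there. The HyG mice also carry PANIC-ATTAC, an inducible transgene that destroys the insulin-producing beta cells of the pancreas. High glucose, the loss of beta cells and the second transgene therefore came together, and their parts cannot be told apart. The labels do not say whether the 3 tumors of a group were from separate mice. A p-value here sets a difference of means against the scatter within groups of these samples, which could be technical scatter.

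Mammary tumors of mice grow inside a fat pad, so a piece of tumor can hold white and brown adipocytes beside the luminal epithelial cells of the tumor. Brown adipocytes burn fatty acids to make heat through the uncoupling protein Ucp1, and white adipocytes store triglyceride and secrete the hormone leptin. Insulin drives glucose uptake and fat synthesis in adipocytes, and loss of insulin is known for slowing both. In bulk RNA, fewer cells of a type and less RNA per cell cannot be told apart.

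Total RNA was measured on Illumina BeadChips. The 6 tumor arrays were alike in quality, with median raw signals between 55.1 and 58.6, a mean of 43.8 to 44.4 beads per probe and 16902 to 18081 detected probes. Correlations across probes were 0.985 to 0.991 within groups and 0.977 to 0.989 between groups. The contrast between the groups held 32.3% of the variance, where chance gives 20%. HyG and control tumors shared a BeadChip, but controls held its first positions and HyG tumors its last, so an effect of position cannot be told apart from one of hyperglycemia. Of the 45281 probes, 16989 were detected on all 3 arrays of at least 1 group and were tested with limma on log2 signals. No tested luminal marker passed an unadjusted p of 0.05. Of the listed luminal markers not tested, Epcam and Pgr were above background on no tumor array and Esr1 on 2. The 7 tested members, among them Krt8, Krt18, Krt19, Elf5 and Gata3, summed to 13970 to 15270 signal units in HyG tumors and 12690 to 15360 in control tumors.

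Few genes passed the test. At an adjusted p under 0.05 (limma, Benjamini-Hochberg over all tested probes), 8 of 16989 probes or 0.0471% differed between HyG and control tumors, 2 (0.0118%) higher and 6 (0.0353%) lower. The genes that fell were Ucp1 and Cidea, of brown fat, Fabp3 and Scd1, of fatty acid handling, and Paqr9, with 1 probe that has no gene name. Fabp3, Paqr9 and the unnamed probe were detected in no HyG tumor, and Ucp1 in 1. These probes entered the test only through the control tumors, where they were higher. Among probes detected on all 6 arrays 1 passed, and without a filter on dim probes none did. The genes that rose were Zbtb16 and Rab26. The count of 8 also leaned on single arrays. No probe passed without HyG tumor 1, with 1410 probes then at an unadjusted p under 0.05, and none without HyG tumor 3, with 1431. Without control tumor 1, 56 probes passed, 17 higher and 39 lower, among them all 8. Between 4 and 5 passed when any other single array was left out.

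**Figure D1:**
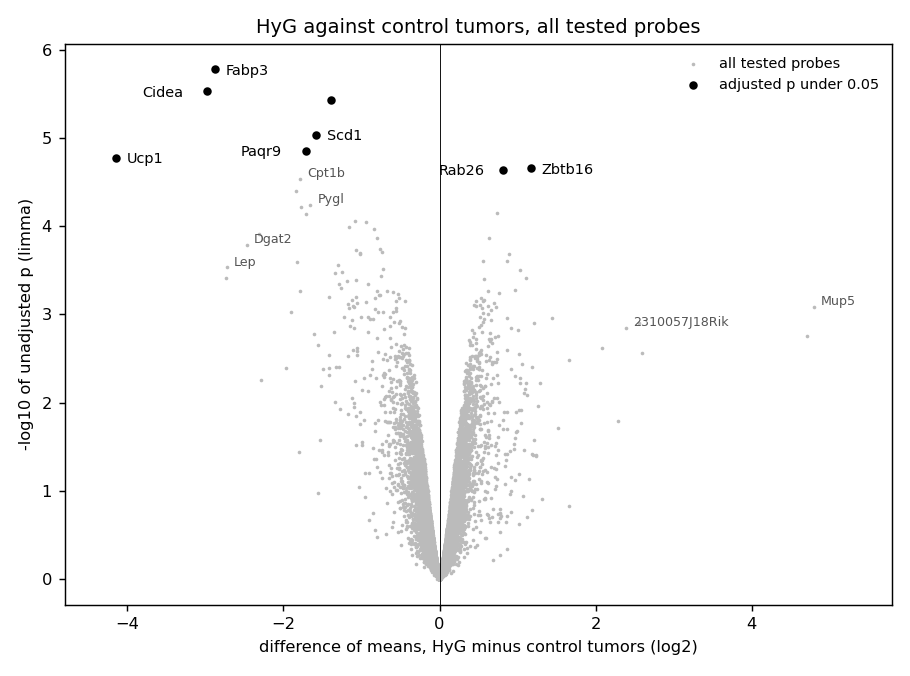
Difference of group means (log2, HyG minus control tumors, horizontal axis) against −log10 of the unadjusted limma p (vertical axis) for all 16989 tested probes. Black points are the 8 probes at an adjusted p under 0.05; Ucp1 lies farthest left at −4.14, and the grey Mup5 point at 4.79 lies far right but below the black points.

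At an unadjusted p under 0.05 stood 1618 probes or 9.52%, against 849 by chance, with 793 (4.67%) higher in HyG tumors and 825 (4.86%) lower. A difference of at least 2-fold was seen for 118 probes or 0.695%, of which 43 (0.253%) were higher and 75 (0.441%) lower. The 3 HyG arrays lay wholly to 1 side of the 3 control arrays for 2620 probes or 15.4%, 7.88% higher and 7.55% lower. The median probe had a 95% confidence interval of 1.2-fold around its difference, and for 96.9% of probes it stayed within 2-fold. An exact permutation test of 3 against 3 arrays cannot give a two-sided p below 0.1.

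Ucp1, which uncouples respiration from ATP synthesis in brown fat, showed the largest fall of all tested probes. Its log2 signals were 5.50, 4.52 and 4.57 in HyG tumors 1 to 3 and 8.96, 8.11 and 9.94 in control tumors 1 to 3. The groups did not overlap, and the probe rose above background in 1 HyG tumor and in all 3 controls. The means were 4.86 ± 0.55 in HyG tumors and 9.0 ± 0.91 in control tumors (SD over 3 arrays). Ucp1 thus differed by −4.14, with a 95% confidence interval from −5.18 to −3.11 and an adjusted p of 0.0474. Fabp3, a carrier of fatty acids in heart, muscle and brown fat, was not above background in any HyG tumor (measured log2 signals 4.97, 4.56 and 4.56) and gave 7.27, 7.35 and 8.10 in control tumors. Taking each HyG array's lowest detected signal as the level there, Fabp3 was at least 4.82-fold lower in HyG tumors (adjusted p = 0.0209).

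For these 2 genes, whose signals fell to or near background in HyG tumors, the 250 bases before the transcription start are shown, from RefSeq on GRCm38.p6, plus strand, with the letters AGGTCA in capitals. That hexamer is the core site read by nuclear receptors such as the PPAR family, which act in fat cells.
Ucp1 promoter, chr8:83290098-83290347: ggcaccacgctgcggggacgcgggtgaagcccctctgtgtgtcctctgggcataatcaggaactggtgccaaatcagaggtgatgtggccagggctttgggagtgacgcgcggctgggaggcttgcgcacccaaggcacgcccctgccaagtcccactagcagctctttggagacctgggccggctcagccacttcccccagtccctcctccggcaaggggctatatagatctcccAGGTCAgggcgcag
Fabp3 promoter, chr4:130308488-130308737: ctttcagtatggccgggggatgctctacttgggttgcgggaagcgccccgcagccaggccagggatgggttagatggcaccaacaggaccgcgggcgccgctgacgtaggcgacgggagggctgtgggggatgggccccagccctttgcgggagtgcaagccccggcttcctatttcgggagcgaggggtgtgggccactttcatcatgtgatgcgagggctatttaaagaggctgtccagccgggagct
Ucp1 held 1 match to AGGTCA on either strand, 14 bases before the start, and Fabp3 held none in this window. The hexamer stands in 14% of the 32851 RefSeq windows of the same length. Neither window held CCAAT, found in 33.8% of the windows, or CACGTG, 1 form of the E-box, found in 6.02%. Other forms of the E-box were not searched. A match in letters is a description of the sequence, and the arrays do not measure binding. Of the 7 named genes that passed the test, these 2 have a window shown.

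Cidea, a lipid-droplet protein of brown adipocytes, was detected in all 6 tumors. It had log2 signals of 7.01, 7.18 and 6.57 in HyG tumors and 9.93, 9.39 and 10.37 in control tumors. Every HyG tumor thus lay more than 2 log2 units below every control tumor. The difference was −2.98 ± 0.25 (SE), or 7.87-fold lower in HyG tumors (adjusted p = 0.0209). Cox8b, a cytochrome oxidase subunit of brown fat and muscle, had 9.82, 9.33 and 8.44 in HyG tumors and 10.62, 10.52 and 11.29 in control tumors. Its groups did not overlap, but the difference of −1.61 ± 0.35 (SE) did not pass (adjusted p = 0.224). Ppargc1a, the coactivator that raises mitochondrial genes in many tissues, differed by 0.09 (adjusted p = 0.856), with 6.55, 6.44 and 6.72 in HyG tumors and 6.41, 6.64 and 6.39 in control tumors.

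Of the 4 brown-adipocyte markers tested, then, 2 fell, where 5 of all 9578 tested genes did, and the median difference was −2.30 where that of all tested genes was 0.000222. The summed signal of the 4 was 571.5 to 1172 in HyG tumors and 2515 to 4891 in control tumors, with no overlap. Ucp1, Cidea and Cox8b stayed at an unadjusted p under 0.05 when any 1 array was left out, and the list median then lay between −2.49 and −2.02. The other 3 listed markers were not tested: Dio2 and Elovl3 were above background on no tumor array, control tumors included, and Otop1 had no probe by the annotation.

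Cpt1b, which brings fatty acids into mitochondria in muscle and brown fat, was not above background in any HyG tumor and gave 6.92, 6.50 and 7.34 in control tumors. It was at least 3.07-fold lower in HyG tumors and just missed the threshold (adjusted p = 0.0555). Paqr9, of the progestin and adipoQ receptor family, was above background in no HyG tumor and in all controls, where its log2 signals were 6.07, 6.44 and 6.76. It was at least 2.18-fold lower in HyG tumors (adjusted p = 0.0474).

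Scd1, the desaturase that makes monounsaturated fatty acids, fell in all 3 HyG tumors. Its log2 signals were 11.41, 11.90 and 11.51 in HyG tumors and 12.99, 13.19 and 13.37 in control tumors. The groups were more than 1 log2 unit apart at their nearest arrays, and the mean difference of −1.58 ± 0.16 (SE) makes Scd1 2.99-fold lower in HyG tumors (adjusted p = 0.039). Scd2, the related desaturase of other tissues, differed by −0.04 (unadjusted p = 0.826).

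The fatty acid and triglyceride pathway lay on the same side, and Scd1 was its only tested member that passed. All 12 tested genes of the list, Scd1 among them, had differences below 0, with a median of −0.52. That count was 11 under median scaling and without HyG tumor 2 or 3, and 10 without control tumor 3. Of the 12, 7 stood lower at an unadjusted p under 0.05, again with Scd1, where 5.35% of all tested genes did. Dgat2, which makes the last bond of triglyceride, gave 8.84, 9.80 and 8.42 in HyG tumors and 10.94, 11.58 and 11.94 in control tumors. Its difference was −2.47 ± 0.37 (SE, adjusted p = 0.125), with no overlap. Elovl6, which lengthens fatty acids, had 9.34, 8.93 and 9.26 in HyG tumors and 9.81, 10.23 and 10.24 in control tumors (difference −0.92, adjusted p = 0.172). Agpat2, an earlier enzyme of triglyceride synthesis, differed by −1.13 (adjusted p = 0.192), and both of its probes pointed down. All 3 of these genes kept the groups apart, array by array.

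Acly, which makes cytosolic acetyl-CoA, differed by −0.39 (adjusted p = 0.308) and Fasn, the fatty acid synthase, by −0.92 (adjusted p = 0.328); these were named after their values were seen. The summed signal of the 12 genes, with Scd1 included, was 13540 to 18290 in HyG tumors and 25430 to 32110 in control tumors, without overlap. Between 6 and 8 of the 12 stayed lower at an unadjusted p under 0.05 when any 1 array was left out. Cholesterol synthesis did not show this: none of its 9 tested genes had an unadjusted p under 0.05, and their median difference was −0.05.

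Markers of adipocytes as a whole, a list that does not set white fat apart from brown, lay on the same side. All 10 tested markers had differences below 0, none passed the adjusted threshold, and 4 stood lower at an unadjusted p under 0.05, where 5.35% of all tested genes did. The median was −0.67, and −0.39 without HyG tumor 3. That count of 4 was 9 without control tumor 1, 7 without HyG tumor 2, and 2 without control tumor 2 or 3. Lep, which encodes leptin, had 6.18, 8.05 and 6.64 in HyG tumors and 9.24, 10.05 and 9.75 in control tumors, a difference of −2.72 ± 0.44 (SE, adjusted p = 0.151). Pparg, the nuclear receptor that directs fat-cell formation, had 8.03, 8.42 and 7.70 in HyG tumors and 8.68, 9.20 and 9.61 in control tumors (difference −1.11, adjusted p = 0.269). Neither gene's groups overlapped. Lpl, the lipase that releases fatty acids from lipoproteins, differed by −0.74 (unadjusted p = 0.0292) and Thrsp, a lipogenic nuclear protein that both lists hold, by −0.65 (unadjusted p = 0.0296).

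Adipoq, which encodes adiponectin and is among the most specific fat-cell genes, had 10.84, 11.15 and 10.23 in HyG tumors and 10.62, 11.33 and 11.79 in control tumors. Its groups overlapped, and the difference was −0.50 with a 95% confidence interval from −1.25 to 0.24. Plin1 and Cidec, which coat lipid droplets, differed by −0.69 and −0.50, also with overlap. These 3 were named after their values were seen.

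Of the listed adipocyte markers not tested, Fabp4, Retn and Cd36 were above background on no tumor array. The summed signal of the 10 tested adipocyte markers was 8942 to 17900 in HyG tumors and 15680 to 29300 in control tumors. HyG tumor 2 therefore held more adipocyte signal, at 17900, than control tumor 1, at 15680. In that pair, picked after the values were seen, Ucp1 was 4.52 in HyG tumor 2 and 8.96 in control tumor 1. Cidea was 7.18 in HyG tumor 2 and 9.93 in control tumor 1, and Scd1 was 11.90 and 12.99. The adipocyte markers Lep, Pparg and Thrsp were also lower in HyG tumor 2 than in control tumor 1. They stood at 8.05 against 9.24, 8.42 against 8.68 and 12.07 against 12.19. The other tested adipocyte markers were higher in HyG tumor 2, and bright markers weigh most in a summed signal. The pair is 1 array of each group. Of the 75 probes at least 2-fold lower in HyG tumors, a set chosen by these same values, HyG tumor 2 was the highest HyG array for 63. Control tumor 1 was the lowest control for 68. The matching counts over all tested probes were not taken. The part of adipocyte content in the lower lipid genes was not tested.

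**Figure D2:**
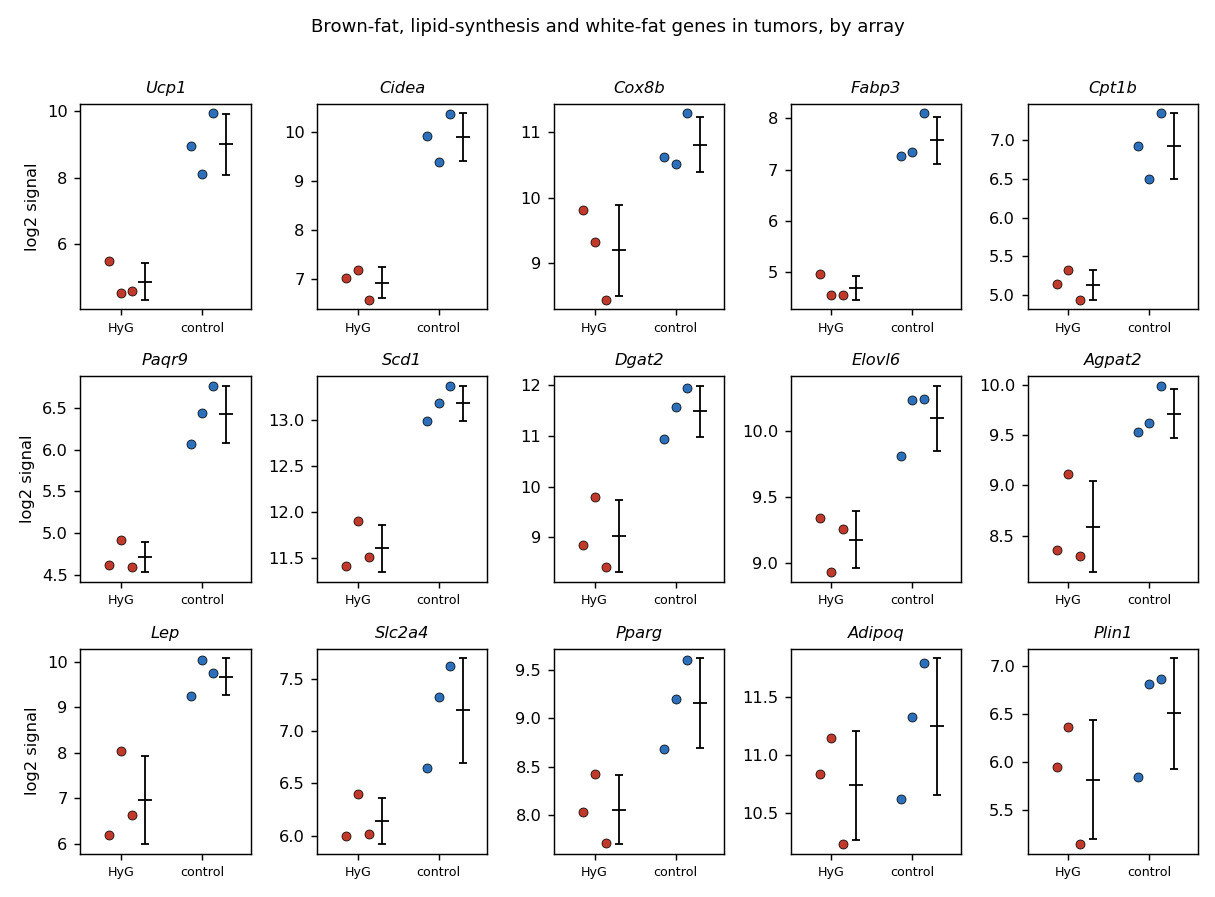
Log2 signals of 15 genes of brown fat, lipid synthesis and fat cells in general in each HyG tumor (red) and control tumor (blue). The bar beside each group is its mean ± SD of 3 arrays, and vertical axes differ between panels and do not start at 0. Ucp1, Cidea, Fabp3 and Scd1 leave a wide gap between the groups, while Adipoq and Plin1 overlap.

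Further genes reached an adjusted p under 0.1, as did 16 probes or 0.0942% in all. Pygl, the liver form of glycogen phosphorylase, gave 8.66, 8.92 and 8.31 in HyG tumors and 9.95, 10.24 and 10.67 in control tumors, and both of its probes pointed down (difference −1.65, adjusted p = 0.0853). Npr3, the clearance receptor for natriuretic peptides, had 5.23, 5.63 and 5.40 in HyG tumors and 6.78, 7.71 and 7.27 in control tumors (difference −1.83, adjusted p = 0.0682). Clstn3, a calsyntenin, differed by −1.77 (adjusted p = 0.0853). The groups of all 3 stayed apart.

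Mlxipl encodes ChREBP, a transcription factor that switches on glycolytic and lipogenic genes when glucose metabolites build up. Its most separated probe had 5.32, 5.60 and 5.18 in HyG tumors and 6.29, 6.37 and 6.69 in control tumors (difference −1.09, adjusted p = 0.0947), and its brighter second probe differed by −0.53. Slc2a4, the insulin-responsive glucose transporter of fat and muscle, had 6.0, 6.40 and 6.02 in HyG tumors and 6.65, 7.33 and 7.63 in control tumors (difference −1.06, adjusted p = 0.267). Its groups did not overlap either.

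Txnip, which glucose induces through MondoA and ChREBP and which limits glucose uptake, did not differ beyond the spread between tumors. Its log2 signals were 13.72, 13.53 and 13.42 in HyG tumors and 13.03, 13.04 and 13.72 in control tumors. Control tumor 3 equalled the highest HyG tumor, so the groups overlapped, and the difference of 0.29 did not pass (95% confidence interval −0.16 to 0.74, adjusted p = 0.687). Arrdc4, its arrestin-like relative with the same glucose response, had 10.44, 10.37 and 10.70 in HyG tumors and 10.36, 10.06 and 10.10 in control tumors. All 3 HyG tumors were above all controls, though HyG tumor 2 and control tumor 1 almost met, with a difference of 0.33 (unadjusted p = 0.0315, adjusted p = 0.474). Of the 8 tested genes on this glucose-response list, Arrdc4 was higher and Slc2a4 lower at an unadjusted p under 0.05, where 4.27% of all tested genes were higher and 5.35% lower. The median of the list was 0.04.

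Among 13 tested glycolysis genes none had an unadjusted p under 0.05, and the median difference was 0.09. Slc2a1, the basal glucose transporter, differed by 0.13 (unadjusted p = 0.4) and Ldha, the lactate dehydrogenase subunit, by 0.18 (unadjusted p = 0.11). Among 14 tested genes of insulin and IGF signalling 1 was lower at that level, where 5.35% of all tested genes were: Igf2, a growth factor of the insulin family. Igf2 differed by −0.71 (unadjusted p = 0.0387), with control tumor 1 at 6.81 inside the HyG range of 6.52 to 7.06. The insulin receptor gene Insr differed by −0.12 (unadjusted p = 0.32).

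**Figure D3:**
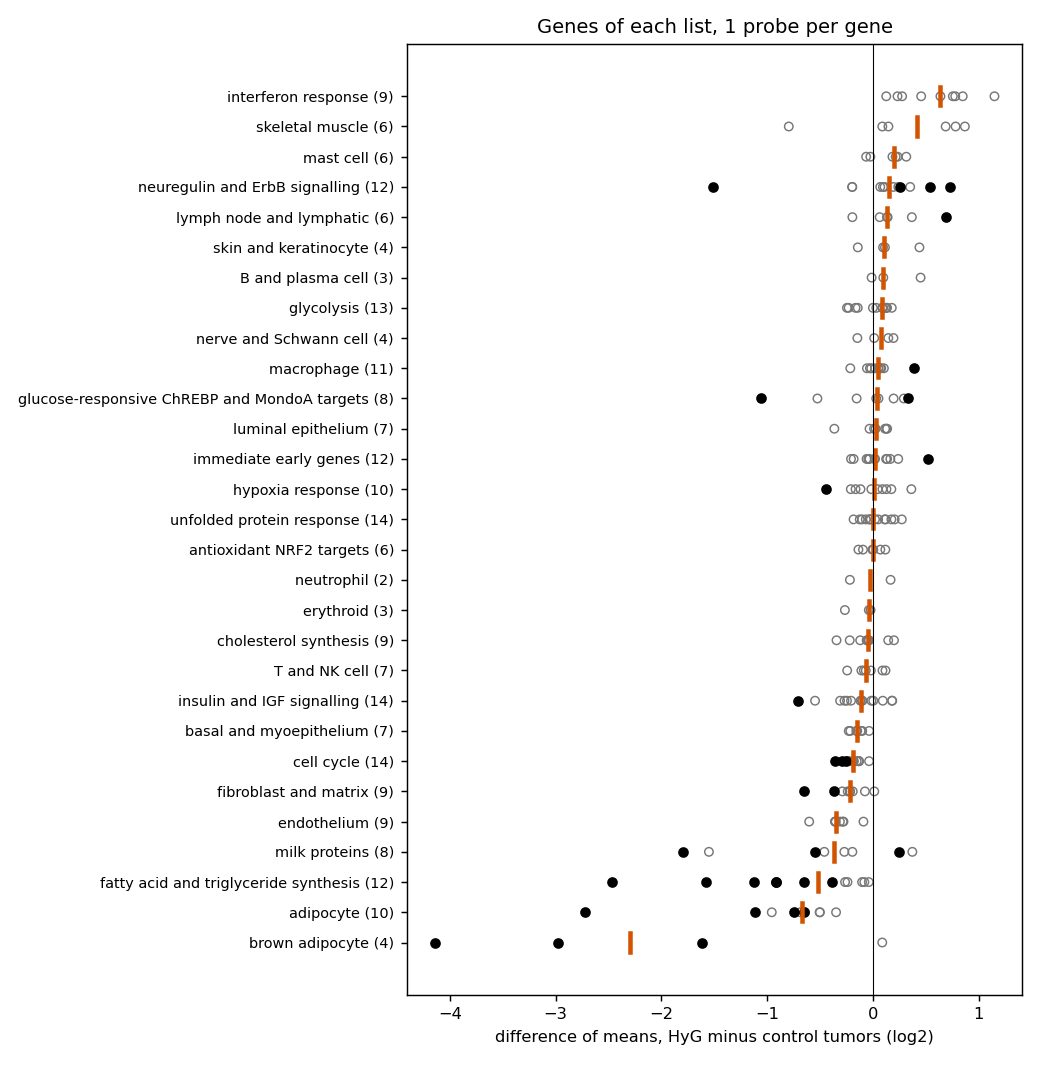
Difference of means (log2, HyG minus control tumors, horizontal axis) of each tested gene, by list, with the number of tested genes in brackets; filled points have an unadjusted p under 0.05 and orange bars are list medians. Brown adipocyte, adipocyte and fatty acid and triglyceride synthesis lie farthest left, with medians of −2.30, −0.67 and −0.52, and most other medians lie near 0.

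The ErbB receptors, a family of tyrosine kinases that drive mammary growth, did not pass the test in either direction. Egfr had 9.63, 9.63 and 9.68 in HyG tumors and 9.54, 9.57 and 9.63 in control tumors, a difference of 0.07 (95% confidence interval −0.13 to 0.26). Erbb2 had 8.45, 8.71 and 8.60 in HyG tumors and 8.45, 8.38 and 8.21 in control tumors, a difference of 0.24 (95% confidence interval −0.02 to 0.49). Erbb3, the receptor that binds neuregulins but lacks strong kinase activity, had 6.54, 5.93 and 6.70 in HyG tumors and 6.01, 5.99 and 6.11 in control tumors, a difference of 0.35 (95% confidence interval −0.08 to 0.79). By these probes the groups overlapped for all 3 receptors. Egfr has 5 tested probes, with differences from −0.04 to 0.22, 3 of them above 0 and 1 with all HyG tumors above all control tumors.

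Their ligands went both ways, and none passed the adjusted threshold. Egf, which binds Egfr, had 6.84, 6.35 and 6.45 in HyG tumors and 5.90, 5.84 and 5.73 in control tumors (difference 0.73, unadjusted p = 0.000826, adjusted p = 0.176). Nrg1, which binds Erbb3, was near background, with 5.69, 5.79 and 5.99 in HyG tumors and 5.44, 5.46 and 4.96 in control tumors. It was above background in all 3 HyG tumors and in 1 control tumor (difference 0.54, unadjusted p = 0.0087, adjusted p = 0.341). Every HyG tumor exceeded every control tumor for both ligands.

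Nrg4, a neuregulin known as a secreted factor of brown fat, ran the other way, with 6.48, 7.20 and 5.48 in HyG tumors and 7.47, 7.85 and 8.39 in control tumors. Its difference was −1.52 (unadjusted p = 0.00649, adjusted p = 0.315), and both of its probes pointed down. Grb7, an adaptor that binds activated ErbB2, was higher by 0.26 (unadjusted p = 0.0314, adjusted p = 0.474). Among the 12 tested genes of the list, an unadjusted p under 0.05 went with 3 higher and 1 lower, where 4.27% of all tested genes were higher and 5.35% lower.

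**Figure D4:**
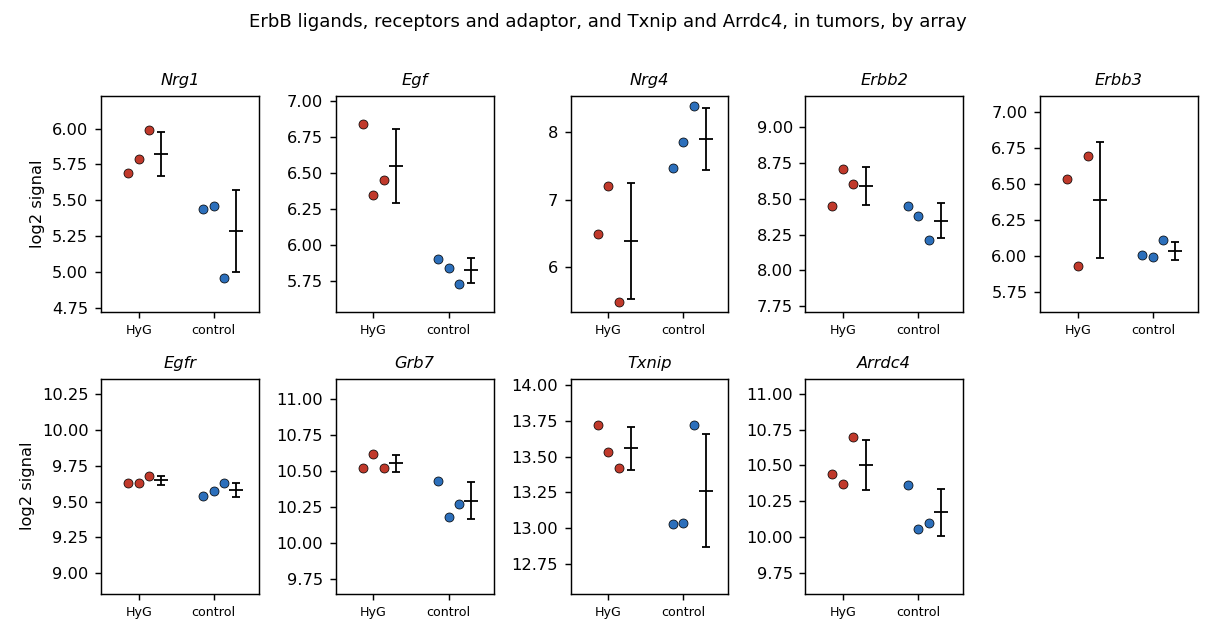
Log2 signals of ErbB ligands (Nrg1, Egf, Nrg4), receptors (Erbb2, Erbb3, Egfr) and adaptor (Grb7), and of Txnip and Arrdc4, in each HyG tumor (red) and control tumor (blue), with mean ± SD of 3 arrays; vertical axes differ between panels and do not start at 0. Egf and Nrg1 sit higher and Nrg4 lower in all HyG tumors, and the receptors overlap or touch.

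The genes that rose are a transcription factor and a trafficking protein. Zbtb16, the zinc-finger repressor also called PLZF and known as a glucocorticoid-induced gene, had 6.67, 6.95 and 6.46 in HyG tumors and 5.53, 5.57 and 5.49 in control tumors. The controls were nearly equal and lay almost 1 log2 unit below the lowest HyG tumor. Zbtb16 was 2.24-fold higher in HyG tumors, a log2 difference of 1.16 ± 0.13 (SE, adjusted p = 0.0489). Rab26, a small GTPase of secretory granules, had 8.87, 8.78 and 8.75 in HyG tumors and 7.98, 8.08 and 7.91 in control tumors. Both of its probes were higher without overlap, and the difference was 0.82 ± 0.09 (SE, adjusted p = 0.0489). Over 18 alternative settings, Zbtb16 passed the adjusted threshold in 4 and Rab26 in 7, and neither changed sign.

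Genes next in order did not pass. Csdc2, an RNA-binding protein with a cold-shock domain, differed by 0.74 (adjusted p = 0.0888), with 6.96, 7.05 and 7.01 in HyG tumors and 6.41, 6.16 and 6.23 in control tumors. C5ar2, a receptor of the complement fragment C5a, differed by 0.90 (adjusted p = 0.126), and Nfkbia, the inhibitor that holds NF-kappa-B in the cytoplasm, by 0.57 (adjusted p = 0.162). Atp2a3, a calcium pump of the endoplasmic reticulum, differed by 0.97 and Sptb, the beta spectrin of red cells, by 0.87, each by its most separated probe; their 3 probes each were all higher, but from as little as 0.33 for Atp2a3 and 0.11 for Sptb. Tulp1, Mpzl1, Prr15l, Casz1 and Sec14l4 completed the 12 highest-ranked genes, with adjusted p between 0.111 and 0.176. The first 4 differed by 0.55 to 0.76, and Sec14l4, not above background in any control tumor, was at least 1.13-fold higher in HyG tumors. On the lower side 1810065E05Rik, at −1.16, and Gm525 completed the order, both with an adjusted p of 0.101. Gm525 was not above background in any HyG tumor and was at least 1.51-fold lower there. None of these genes overlapped between the groups, which the naming rule required.

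Some of the wider upward differences did not pass; the genes given next were named after their values were seen. Mup5, a major urinary protein that carries pheromones, had 13.29, 9.28 and 12.56 in HyG tumors and 7.26, 6.28 and 7.21 in control tumors. HyG tumor 2 was far below the other HyG tumors, and the difference of 4.79 ± 0.91 (SE) had an adjusted p of 0.176, with a second probe at 4.71. Mup genes are near-identical copies of one another, so which copy these probes read is uncertain; a Mup6 probe differed by 2.28 and the Mup2 probes by 1.65 and 1.02, the smaller of these with overlapping groups. Pip, the prolactin-inducible protein of secretory glands, had 11.73, 10.35 and 11.83 in HyG tumors and 9.58, 7.74 and 8.94 in control tumors (difference 2.55, adjusted p = 0.195).

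Scgb2b27, a secretoglobin, differed by 1.21 (adjusted p = 0.195) and 2310057J18Rik by 2.38 (adjusted p = 0.206). Prol1, a proline-rich protein of tears and saliva, differed by 1.18 and Klk1b26, a glandular kallikrein, by 1.52. The groups of Mup5, Pip, Scgb2b27, 2310057J18Rik and Prol1 did not overlap, and control tumor 1, at 8.09, lay inside the HyG range of Klk1b26.

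**Figure D5:**
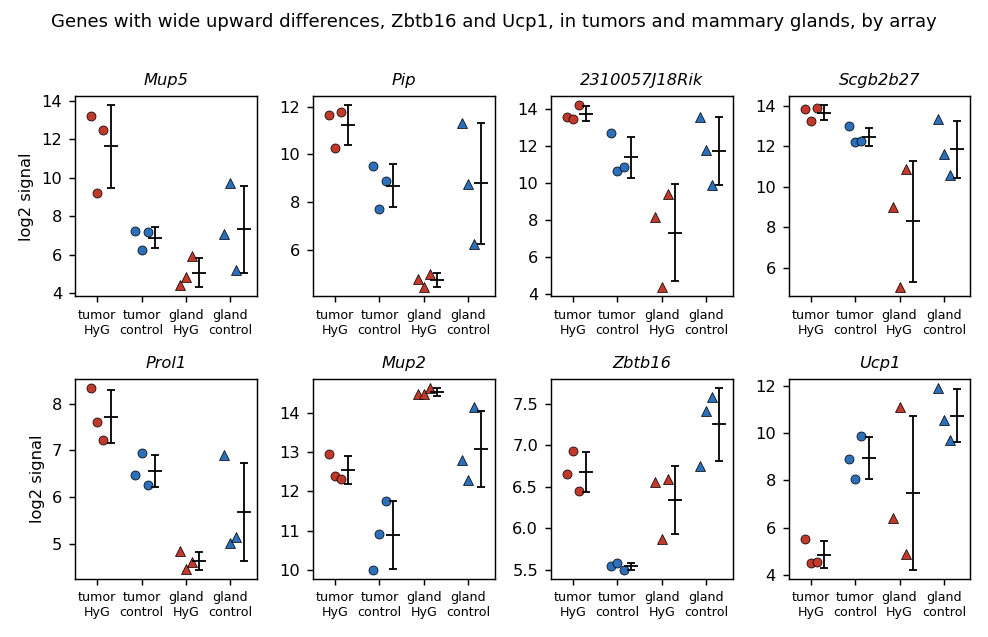
Log2 signals, normalized over all 12 arrays, of 6 genes with wide upward differences in tumors, Zbtb16 and Ucp1 in HyG tumors, control tumors, HyG glands and control glands (red HyG, blue control, circles tumors, triangles glands), with mean ± SD of 3 arrays; vertical axes differ between panels and do not start at 0. Pip and 2310057J18Rik stand high in HyG tumors and low in HyG glands, while Mup2 is higher in HyG samples of both tissues.

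Casein genes, the milk proteins that PyMT tumors can still make, varied mostly between single tumors. Csn1s1 had 10.29, 11.80 and 10.45 in HyG tumors and 10.92, 13.52 and 13.50 in control tumors (difference −1.80, unadjusted p = 0.0358). Csn2 had 11.31, 12.86 and 10.75 in HyG tumors and 11.21, 14.34 and 14.02 in control tumors (difference −1.55, unadjusted p = 0.104). Control tumor 1 lay within the HyG range for both. Csn1s2b was lower by 0.55 on average and Csn3 higher by 0.24 at its brightest probe (unadjusted p = 0.01 and 0.0336). The 3 Csn3 probes ran from −0.17 to 0.24. Csn2 and the other 4 tested milk genes had an unadjusted p above 0.1.

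Cell-cycle genes had small differences of 1 sign. Each of the 14 tested had a difference below 0 (13 under median scaling and when control tumor 2, control tumor 3 or HyG tumor 1 was left out), the median was −0.19, none passed, and 3 had an unadjusted p under 0.05, where 5.35% of all tested genes were lower: Rrm2, a subunit of ribonucleotide reductase, at −0.36, and Mcm2 and Mcm5, of the replication helicase, at −0.29 and −0.26. Their summed signal was 12860 to 14220 in HyG tumors and 13620 to 16030 in control tumors, with overlap. Without control tumor 2 none of the 14 had an unadjusted p under 0.05.

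Interferon-response genes varied between single tumors. All 9 tested had differences above 0, with a median of 0.64, and none had an unadjusted p under 0.05. The median was 0.30 without control tumor 3, 0.32 without HyG tumor 3 and 1.13 without HyG tumor 1, and up to 2 of the 9 were then below 0. Irf7, the transcription factor of that response, had 7.23, 7.97 and 8.66 in HyG tumors and 8.09, 6.34 and 5.99 in control tumors (difference 1.15, unadjusted p = 0.073). HyG tumor 1 was the lowest HyG tumor and control tumor 1 the highest control, so the groups overlapped. Without control tumor 1, 6 of the 9 were higher at an unadjusted p under 0.05, and without HyG tumor 1, 4 were.

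At an unadjusted p under 0.05, 4.27% of all tested genes stood higher and 5.35% lower, and the marker lists of other cell types had few members at that level. All 9 tested endothelial markers were below 0 with a median of −0.35, and none was at that level (5 without control tumor 1). The median was −0.17 without control tumor 3 and −0.19 without HyG tumor 3, with 8 of the 9 below 0 in each. Of 11 macrophage markers 1 had, Cd14, the lipopolysaccharide co-receptor, at 0.39 (unadjusted p = 0.018). Of 9 fibroblast and matrix markers 2 had, Sparc at −0.37 (unadjusted p = 0.00594) and Dpt at −0.65 (unadjusted p = 0.0366), both proteins of the extracellular matrix. Lyve1, a hyaluronan receptor of lymphatic vessels, was 1 of 6 tested lymph node and lymphatic markers at that level, with a difference of 0.69 (unadjusted p = 0.00876) and no overlap. Without control tumor 3, 3 of those 6 were higher at that level. Skeletal muscle markers summed to 613.9 to 3320 in HyG tumors and 612.8 to 3454 in control tumors, high in 1 tumor of each group. The unfolded protein response, with 14 tested genes, and the NRF2 antioxidant targets, with 6, had none at an unadjusted p under 0.05.

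Normal mammary glands of PANIC-ATTAC (HyG) and wild-type (control) mice of the same strain, sex and age served for comparison, in a fit over all 12 arrays. The glands were on another BeadChip, again with controls at its first positions and HyG samples at its last. An effect of position therefore cannot be told apart from one of hyperglycemia in glands either, nor in a direction that both tissues share. Control gland 1 stood apart: its median correlation was 0.97 with the tumors and 0.946 with the other glands, while the other glands had 0.871 to 0.896 with the tumors and 0.971 to 0.984 with glands. Gland values are therefore given with and without it. The test of the difference between the tissues (interaction) called 0 of 18427 probes in limma, with 1425 probes or 7.73% at an unadjusted p under 0.05 and a smallest adjusted p of 0.194, so no gene is shown to respond differently in tumors by this fit. With array weights, 33 probes passed the interaction test, 14 higher and 19 lower. Ucp1 gave 6.43, 11.09 and 4.88 in HyG glands and 11.91, 10.55 and 9.72 in control glands, where HyG gland 2 lay within the control range. The gland difference of −3.26 had an unadjusted p of 0.0237, and of 0.0774 at −2.67 without control gland 1. Cidea, Fabp3, Cpt1b and Scd1 differed in glands by −1.76, −1.50, −1.31 and −0.70, all with overlap between the groups, and by −1.58, −0.73, −0.94 and −0.74 without control gland 1. Scd1 gave 14.13, 14.09 and 12.10 in HyG glands and 14.05, 14.24 and 14.12 in control glands, so its difference rested on HyG gland 3. Cidea had 10.59, 11.96 and 7.04 in HyG glands, lowest again in HyG gland 3, and 11.98, 11.51 and 11.39 in control glands. Fabp3 and Cpt1b lay below all control glands in HyG glands 1 and 3. No fit left out HyG gland 3. Adipoq differed in glands by 0.24, and by −0.06 without it.

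Zbtb16 ran the opposite way in glands, with 6.56, 5.87 and 6.59 in HyG glands and 6.75, 7.42 and 7.59 in control glands, without overlap (difference −0.91, unadjusted p = 0.00277, and −1.17 without control gland 1). Its interaction of 2.05 had an adjusted p of 0.194, or 0.0758 without control gland 1. Pip had 4.75, 4.41 and 4.98 in HyG glands and 11.32, 8.77 and 6.24 in control glands, and the difference was −4.07, or −2.80 without control gland 1. 2310057J18Rik differed in glands by −4.45, or −3.53 without control gland 1, likewise opposite to tumors, and their interactions had adjusted p of 0.395 and 0.464. Mup2 was higher in HyG samples of both tissues, at its brighter probe by 1.65 in tumors and 1.44 in glands (1.29 without control gland 1). The 75 probes at least 2-fold lower in HyG tumors were lower in HyG glands for 57 or 76%, where 54.4% of all tested probes were, with median gland differences of −0.30 and −0.02. Without control gland 1 it was 71 of the 75 or 94.7%, where 51.7% of all tested probes were, with medians of −0.62 and −0.01. These shares were not taken without HyG gland 3.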

How the data were processed

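Total RNA of 12 samples was labelled with biotin and hybridised to single-colour Illumina BeadChips, per the labels' protocols. Per the submitters' processing notes, GenomeStudio 2011.1 was used. The deposited values, per the file headers, are the mean bead intensity of each probe on a linear scale, with a detection p-value, the count of beads and their standard error. The authors' deposited table of processed intensity values served as an alternative; the sources used here do not give how it was made.

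For the 6 tumor arrays alone, neqc (limma 3.58.1, R 4.3.3) corrected the background, added an offset of 16 and quantile normalized log2 intensities. The offset pulls differences of dim probes towards 0. Probes whose 3 arrays of either group all had a detection p under 0.01 were tested with lmFit and eBayes, with 4 residual degrees of freedom and 3.85 from the pooled variance, and adjusted by Benjamini-Hochberg. The glands and the interaction come from the same steps over 12 arrays. The script was tested on 16989 simulated probes with independent noise, of which 50 were changed at each fold. It recovered 66% of those changed 1.5-fold and 96% of those changed 2-fold, with 16 false calls. Such noise does not copy variation that probes share on an array. A probe detected on no array of a group has only a bound there, given as "at least". The number of arrays limits the precision.

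Genes were named from the platform annotation, updated by Entrez ID to RefSeq on GRCm38.p6. Of 45281 probes, 34885 have 1 gene, 18 several and 10378 none here, and 14633 of the tested probes have 1. A list takes the brightest probe of each gene. Members and lists were chosen with earlier results of these data known. For each direction, 12 genes were named: those past the threshold without overlap between groups, by size, then the smallest unadjusted p without overlap. Also named were Txnip, Arrdc4, Nrg1, Erbb2, Erbb3, Egfr and up to 4 genes per list; others were named after their values were seen. Alternatives covered background, normalization, filters, array weights, variance model, arrays fitted, the replicate block and leaving out each array. Deviations of same-numbered HyG and control tumors from their group means had correlations of −0.221, 0.0845 and −0.394. Those of differently numbered tumors ran from −0.261 to 0.435. With 3 arrays per group, these values cannot decide whether the numbers pair the tumors.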

Additional observations from a re-analysis of the deposited data

How the results depend on the processing

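Probes at an adjusted p under 0.05 (8 as reported) numbered 0 without a filter on dim probes, with 3319 then at an unadjusted p under 0.05, and 1 among probes detected on all 6 arrays. They numbered 19 with array weights (3 higher, 16 lower), 0 with the spread and normalization from all 12 arrays, with 688 at an unadjusted p under 0.05, and 0 in the fit with the replicate block, with 1199. Background, normalization and variance settings gave 6 to 11. Leaving out 1 array gave 0 to 56 adjusted, 886 to 1865 unadjusted, and 3435 to 4896 non-overlapping probes, where 2 arrays against 3 separate more easily. Probes at least 2-fold apart (118) numbered 63 without background correction, 59 with an offset of 50 and 61 in the authors' values; non-overlapping probes (2620) numbered 5524 without the filter. The interaction count was 33 with array weights (14 higher, 19 lower) and 0 under the other settings run. None of the 79 named genes reversed in 1406 recomputed values, of which 60 lost and 43 gained the threshold. Causes were not tested. Dim probes near background, such as those of Ucp1, Fabp3, Paqr9 and Cpt1b in HyG tumors, limit fold sizes.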

Other observations

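Among genes that the lists do not hold, named after their values were seen, several were at least 2-fold lower in HyG tumors without passing the adjusted threshold of limma. Tmem45b, a transmembrane protein, had log2 signals of 7.43, 8.79 and 7.05 in HyG tumors and 9.79, 10.69 and 10.98 in control tumors (difference −2.73, adjusted p = 0.162). Orm1, an acute-phase plasma protein, had 6.80, 7.12 and 5.83 in HyG tumors and 8.45, 9.11 and 9.14 in control tumors (difference −2.32, adjusted p = 0.109). Pnpla3, a lipase-like protein of lipid droplets, differed by −1.91 (adjusted p = 0.18) and Acss2, which makes acetyl-CoA from acetate, by −1.06 (adjusted p = 0.126). In all 4 genes every HyG tumor lay below every control tumor.

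Pcx, pyruvate carboxylase, which feeds fat synthesis and gluconeogenesis, was not above background in any HyG tumor by its most separated probe, and was at least 1.93-fold lower there than in control tumors (adjusted p = 0.14). Its second probe differed by −0.86. Gldc, the glycine decarboxylase, differed by −1.97 and −2.29 at its 2 probes (adjusted p = 0.283 and 0.308). Bcl6, a transcriptional repressor, stood on the higher side, with 10.87, 10.61 and 10.55 in HyG tumors and 9.83, 10.09 and 10.14 in control tumors (difference 0.66, adjusted p = 0.179). Its groups did not overlap. In glands Bcl6 differed by −0.18 (−0.33 without control gland 1), and the interaction had an adjusted p of 0.464.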
